A study of Mus musculus with 72 samples.

Results

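The immunoglobulin heavy chain V segments were taken as every gene symbol that begins with Ighv in the 4 deposited count tables, which gave 151 segments out of 38951 symbols. All 151 lie on mouse chromosome 12, and the annotation lists 109 of them as V genes and 42 as V pseudogenes. The tables held 127 of them for polysomal RNA and 130 for input RNA of the acute study, and 81 in each relapse table, and 56 segments were in all 4 tables. RNA sequencing covered 2 studies of Eμ-Myc B-cell lymphoma, a mouse tumour in which Myc is driven in B cells by the immunoglobulin heavy chain enhancer, and both used lymphoma cells carrying an MSCV Gfp vector. Polysomal RNA was pooled from sucrose gradient fractions holding 4 or more ribosomes, and input RNA was the cytoplasmic RNA of the same lysate.

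In the acute study, cells of clone 4242 had been transplanted into C57BL/6 mice, and the mice were treated on day 10 for 2 hours. The groups were CX-5461 at 35 mg/kg, everolimus at 5 mg/kg, a combination of both at these doses, and vehicle, with 6 mice each. CX-5461 is an inhibitor of RNA polymerase I transcription, and everolimus is an inhibitor of mTOR. In the relapse study, early-passage lines, kept for 2 to 3 passages, had been made from lymph nodes of mice that carried clone 107 and had succumbed after treatment with CX-5461, everolimus, the combination or vehicle. The vehicle lines are called naive here, and each group had 3 lines. Each study rests on 1 clone. The 24 mice and 12 lines gave 72 libraries, each mouse or line with a polysomal and an input library. Total counts per library were 11528341 to 20854565 in acute polysomal RNA, 17079034 to 24702803 in acute input RNA, 15528791 to 30383886 in relapse polysomal RNA and 14566897 to 26016328 in relapse input RNA.

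During B-cell development a single V segment is joined to a D and a J segment to make the variable exon of the heavy chain. Allelic exclusion leaves a B cell with 1 productive heavy chain, although a second, nonproductive rearrangement can persist on the other allele. A clonal B-cell tumour therefore carries the V segment of the cell it arose from, while normal B cells of a lymph node carry many different ones. V segments are grouped in families by sequence likeness, the first number of the name. Unrearranged V segments have weak promoters and are little transcribed in mature B cells. A share of Ighv counts is not a share of cells, and in these bulk samples fewer cells of a type and less RNA per cell cannot be told apart. Reads were 50 bases long, so a count can hold reads of a closely related segment. Counts were not divided by segment length.

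The segments that led the counts are shown next, since their likeness to relatives limits what a count means. Sequences are 300-base stretches of the GENCODE M21 transcripts on GRCm38, minus strand, read 5′ to 3′. Ighv10-1 (gene chr12:114479005-114479451, shown chr12:114479018-114479317) led in clone 4242. Ighv10-3 (gene chr12:114523441-114523905, shown chr12:114523454-114523753) is its nearest relative, and capitals mark the 9 bases that differ from Ighv10-1. Ighv1-28 (gene chr12:114809421-114809854, shown chr12:114809426-114809725) ranked next in clone 4242. It is annotated as a V pseudogene, and capitals mark an in-frame stop codon whose first base is base 126 of the stretch.
Ighv10-1: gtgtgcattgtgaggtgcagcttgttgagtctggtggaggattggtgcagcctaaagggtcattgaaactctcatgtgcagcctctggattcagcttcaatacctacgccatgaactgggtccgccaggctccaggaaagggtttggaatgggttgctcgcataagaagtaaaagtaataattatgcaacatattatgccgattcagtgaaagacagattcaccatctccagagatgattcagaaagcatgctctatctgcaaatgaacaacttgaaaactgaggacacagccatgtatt
Ighv10-3: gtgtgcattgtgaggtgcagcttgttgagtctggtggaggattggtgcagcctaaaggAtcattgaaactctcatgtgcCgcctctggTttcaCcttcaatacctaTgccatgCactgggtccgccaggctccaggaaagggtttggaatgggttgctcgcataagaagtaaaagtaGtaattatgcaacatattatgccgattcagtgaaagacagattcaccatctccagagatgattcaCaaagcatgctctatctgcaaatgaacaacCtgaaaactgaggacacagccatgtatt
Ighv1-28: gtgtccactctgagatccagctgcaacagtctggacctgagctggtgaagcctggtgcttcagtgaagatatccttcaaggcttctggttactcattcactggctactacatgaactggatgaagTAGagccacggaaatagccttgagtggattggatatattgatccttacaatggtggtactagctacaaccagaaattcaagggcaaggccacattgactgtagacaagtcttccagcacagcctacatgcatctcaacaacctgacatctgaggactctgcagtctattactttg

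Ighv2-2 (gene chr12:113588267-113588702, shown chr12:113588271-113588570) led in clone 107. Ighv2-4 (gene chr12:113653291-113653724, shown chr12:113653295-113653594) and Ighv2-5 (gene chr12:113685482-113686045, shown chr12:113685486-113685785) are its nearest relatives. Capitals mark the bases that differ from Ighv2-2, 5 in Ighv2-4 and 8 in Ighv2-5.
Ighv2-2: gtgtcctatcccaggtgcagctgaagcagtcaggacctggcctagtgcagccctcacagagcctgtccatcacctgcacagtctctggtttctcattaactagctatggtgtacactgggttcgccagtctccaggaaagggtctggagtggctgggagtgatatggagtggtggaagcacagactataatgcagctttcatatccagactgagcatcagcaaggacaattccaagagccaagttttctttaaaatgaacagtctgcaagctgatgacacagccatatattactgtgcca
Ighv2-4: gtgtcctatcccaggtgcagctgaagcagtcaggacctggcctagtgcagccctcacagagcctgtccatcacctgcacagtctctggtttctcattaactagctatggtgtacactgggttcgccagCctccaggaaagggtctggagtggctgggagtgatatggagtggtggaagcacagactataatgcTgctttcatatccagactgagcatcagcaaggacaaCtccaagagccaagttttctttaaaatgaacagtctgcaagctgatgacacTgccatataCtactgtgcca
Ighv2-5: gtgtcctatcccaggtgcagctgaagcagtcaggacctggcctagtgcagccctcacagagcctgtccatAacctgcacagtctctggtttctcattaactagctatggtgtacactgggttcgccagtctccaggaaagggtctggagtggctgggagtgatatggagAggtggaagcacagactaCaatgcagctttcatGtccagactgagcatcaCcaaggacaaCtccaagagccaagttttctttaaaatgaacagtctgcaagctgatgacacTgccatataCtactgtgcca

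Over the aligned transcripts, Ighv10-3 was 96.7% identical to Ighv10-1, with 12 mismatches in 359 bases, and the third member of that family, Ighv10-2, was 86.6% identical. Ighv2-4 was 97.7% identical to Ighv2-2 and Ighv2-5 was 96.6% identical. Of all 50-base windows of Ighv2-4, 98.7% lay within 2 mismatches of a window of Ighv2-2, against 55.0% of the windows of Ighv2-5. Seen from the leading segments, 82.3% of the windows of Ighv10-1 and 98.0% of those of Ighv2-2 lay within 2 mismatches of another V segment. Reads of the leading segment and of these relatives can therefore be counted on either.

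Some libraries stood apart. In everolimus mice 1 and 3 the Ighv counts differed by no more than sampling noise, with a chi-square per degree of freedom of 0.914 in polysomal RNA and 0.919 in input RNA. Over all genes the same 2 mice differed by more than that, at 59.0 in polysomal and 2.35 in input RNA. In polysomal RNA the genes Lars2 and Yam1 held 6.63% of counts in everolimus mouse 1 and 0.81% in everolimus mouse 3. The part of these 2 genes in the value of 59.0 was not tested. Vehicle mice 2 and 5, the pair next most alike in Ighv counts, differed at 14.02 in polysomal and 12.7 in input RNA, so in input RNA the everolimus pair lay much closer together. The labels name them as separate mice, and they were counted as such in the n of 6, but whether they share a source was not tested. Values without mouse 3 are given where they change a result. Gm26870 and Gm10800 held over 10% of counts in the input libraries of CX-5461 mice 4 and 6 and everolimus mouse 2. Lars2 and Yam1 held over 10% of counts in the polysomal libraries of CX-5461 mouse 6 and vehicle mice 2, 5 and 6. The polysomal libraries of CX-5461 relapse lines 14 and 39 stood next to each other in a stretch of table columns apart from the other 10 lines. The labels name separate mice and lines but do not describe separate experiments, so p-values measure the spread between these samples.

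A single segment, Ighv10-1, took most of the Ighv counts in every node sample of clone 4242. It had the most counts of any Ighv in all 24 mice and in both fractions. Its share of all Ighv counts was 52.7% to 68.4% (median 60.7%) in polysomal RNA and 59.4% to 75.2% (median 69.2%) in input RNA. The 95% Wilson intervals of single libraries reached 1.14 to 1.86 percentage points to either side in polysomal RNA and 1.00 to 1.42 points in input RNA, and cover counting error only. These shares rest on 2706 to 7034 Ighv counts per library in polysomal RNA and 4036 to 7851 in input RNA. The mice thus differed from each other by more than counting error. The effective number of segments, the inverse Simpson index of the count shares, was 2.01 to 3.37 in polysomal RNA and 1.71 to 2.72 in input RNA, where 1 would mean a single segment. By family, Ighv10 held 63.8% of the summed polysomal and 71.1% of the summed input counts, Ighv1 held 27.1% and 21.2%, and Ighv5 held 2.34% and 2.27%.

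**Figure D1:**
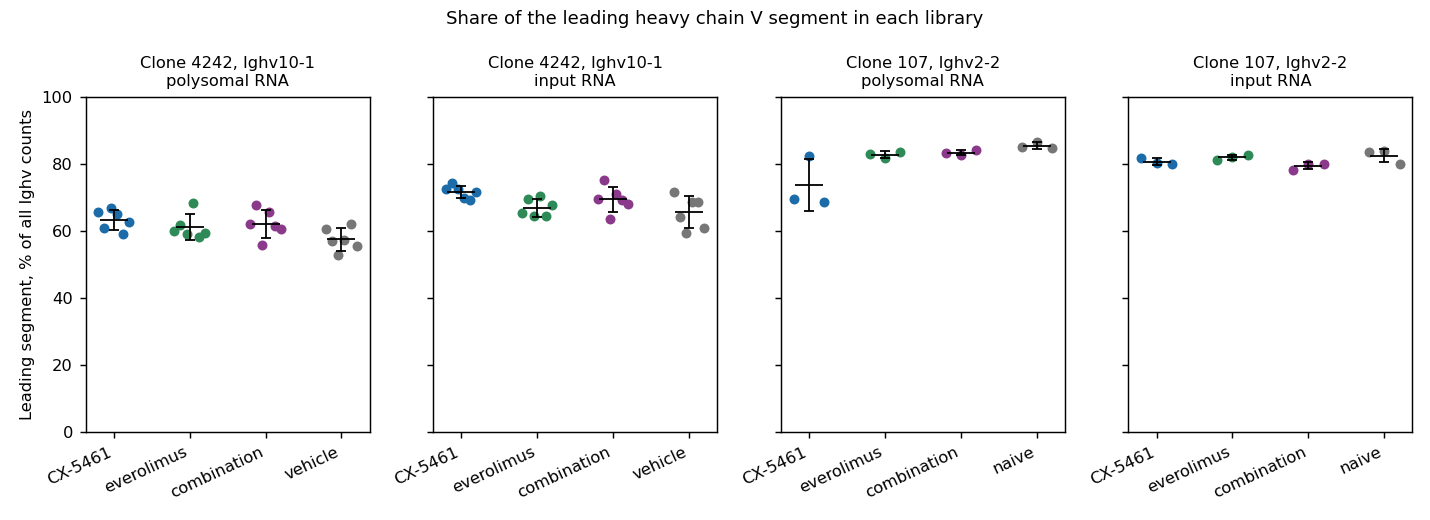
Share of the leading segment, in percent of all Ighv counts, in each library (points), with mean and SD of the group (bars), for CX-5461, everolimus, combination and the vehicle or naive group. Ighv10-1 took 52.7% to 75.2% in clone 4242, and Ighv2-2 took 68.7% to 86.6% in clone 107, where 2 CX-5461 lines lie lowest in polysomal RNA.

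The next segment in clone 4242 was the pseudogene Ighv1-28. It had 26.9 to 65.9 CPM (counts scaled to a library total of 1000000; median 44.0) in polysomal RNA and 26.3 to 51.5 CPM (median 38.1) in input RNA. Ighv10-1 itself had 126 to 221 CPM (median 168.6) in polysomal RNA and 159 to 296 CPM (median 219.9) in input RNA. Within a library, Ighv1-28 counts were 20.1% to 34.7% of Ighv10-1 counts in polysomal RNA (median 24.98%) and 14.7% to 22.5% in input RNA (median 17.4%). The coefficient of variation of this ratio over mice was 14.4% in polysomal and 11.9% in input RNA. Ighv1-28 belongs to another family than Ighv10-1, and no 50-base window of it came within 2 mismatches of Ighv10-1. Ighv10-3, the close relative, had 3.51% to 5.85% of the Ighv10-1 count in polysomal RNA and 3.34% to 5.61% in input RNA. The segments that share a window within 2 mismatches with Ighv10-1 held 7.06% of all non-leading counts in polysomal RNA and 9.40% in input RNA, so most minor counts of clone 4242 came from segments unlike the leading one.

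**Figure D2:**
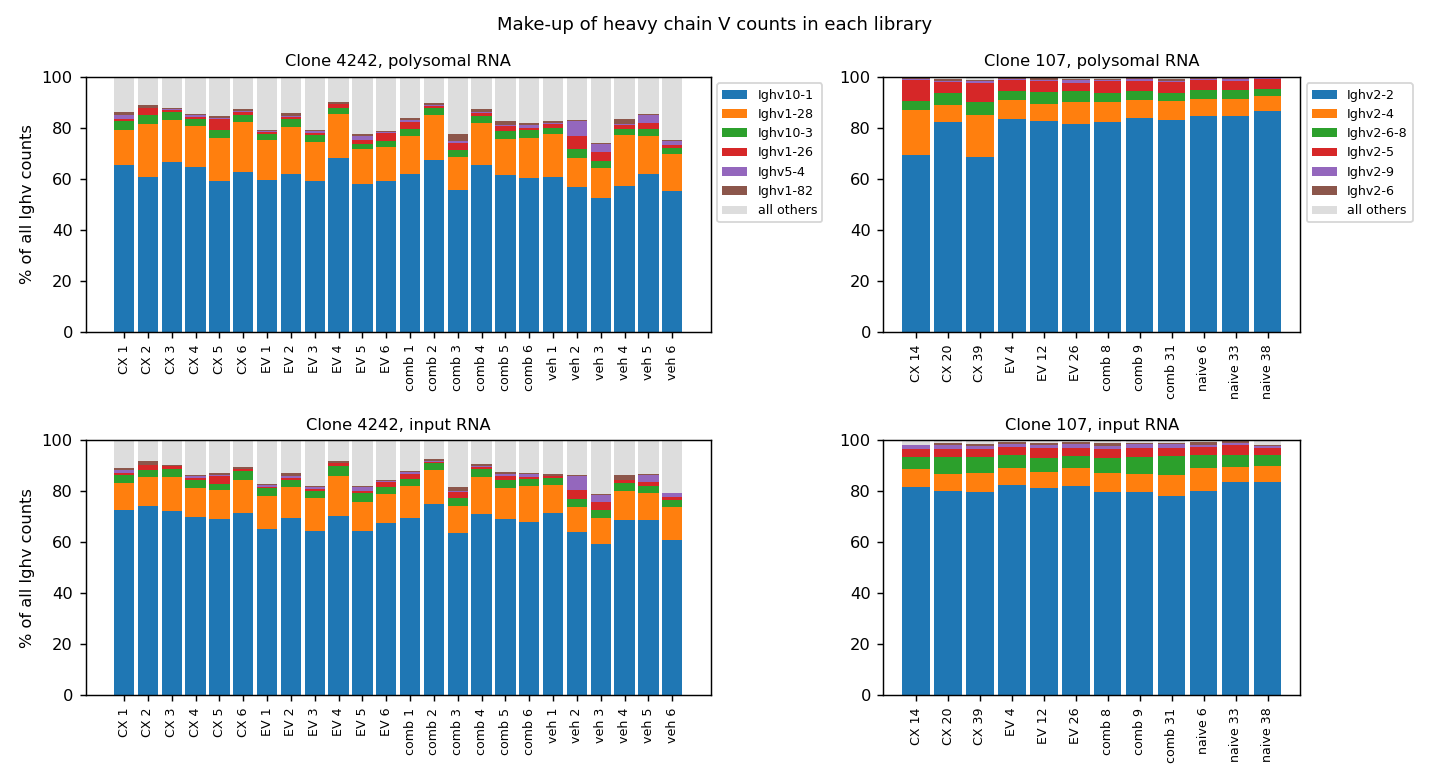
Make-up of the Ighv counts of each library in percent (bars), with the 6 segments of highest mean input CPM in colour and all other segments in grey (CX, CX-5461; EV, everolimus; comb, combination; veh, vehicle). Ighv10-1 and Ighv1-28 fill most of every clone 4242 library, and segments of family Ighv2 fill nearly all of every clone 107 library.

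Behind these leading segments, the minor segments differed between most nodes. A library of clone 4242 had at least 10 counts for 9 to 45 segments in polysomal RNA (median 28.5) and for 17 to 47 in input RNA (median 30.5). Ighv5-4 had the highest input level of a minor segment, 18.9 CPM from 391 counts in vehicle mouse 2, next to 205 and 193 counts in vehicle mice 3 and 5, while its median over all 24 mice was 36.5 counts. Ighv1-15 and Ighv5-17, chosen after their values were seen, were highest in CX-5461 mouse 5, with 137 counts and a median of 9 over the mice, and in vehicle mouse 6, with 249 counts and a median of 16.5. Of 27 segments with at least 50 counts in their top input library, 22 were also highest in the polysomal library of the same mouse.

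The 2 libraries of a mouse were alike in their profile of minor segments. Over 117 segments, leaving out family Ighv10 and Ighv1-28, every one of the 24 input libraries was most like the polysomal library of its own mouse. Pearson r with the own library was 0.676 to 0.938 (median 0.85), and the best r with the library of another mouse had a median of 0.348. These correlations are over segments, which are not independent replicates, and both libraries of a mouse share its cells. Everolimus mice 1 and 3 were again the exception, with r = 0.939 between their polysomal libraries and r = 0.942 between their input libraries. The input library of mouse 1 had r = 0.936 with its own polysomal library and 0.930 with that of mouse 3. The profile thus barely told these 2 mice apart. Of 276 pairs of mice, the next most alike were vehicle mice 2 and 5, at 0.655 in polysomal and 0.671 in input RNA, and the median of the other pairs was -0.05 in polysomal and -0.06 in input RNA. Ighv7-4, singled out after its values were seen, had 339 input counts in everolimus mouse 3, 393 in mouse 1 and 60 in mouse 6, and a median of 0 over all mice. Its polysomal counts in mice 3 and 1 were 336 and 333.

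**Figure D3:**
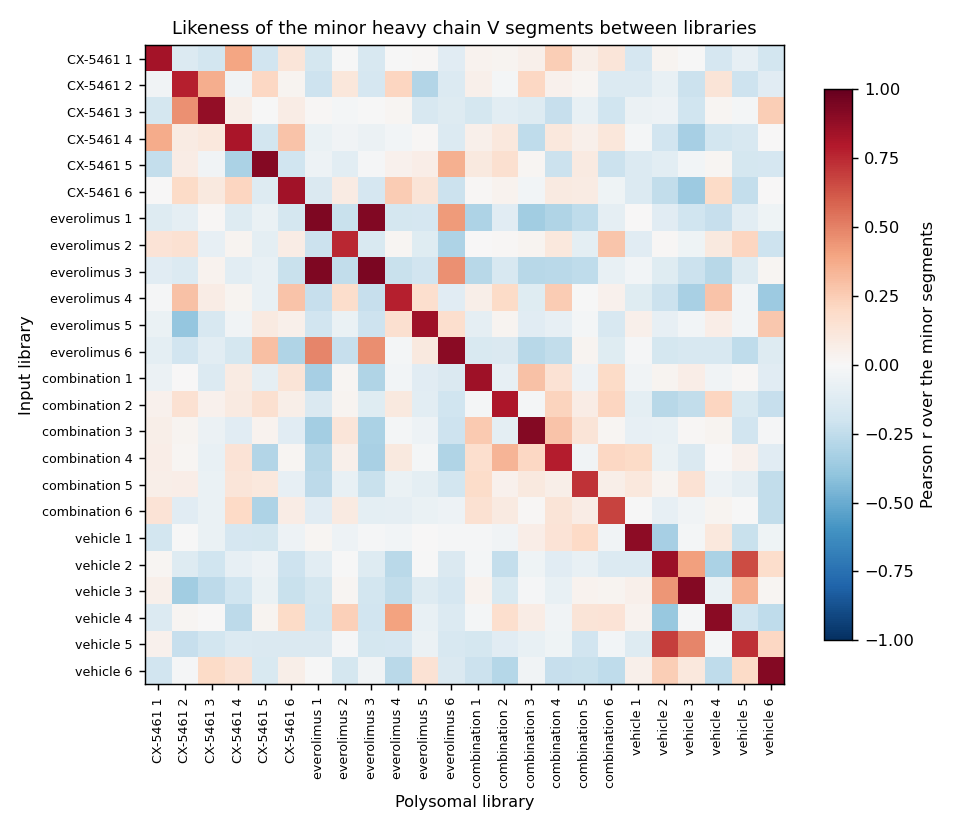
Pearson r over 117 minor segments between each input library (rows) and each polysomal library (columns) of the 24 clone 4242 mice, with colour from blue (-1) to red (1). The diagonal, where both libraries are of the same mouse, holds 0.676 to 0.938, and the highest off-diagonal cells, 0.930 and 0.933, join everolimus mice 1 and 3, followed by 0.688 between the input of vehicle mouse 5 and the polysomal library of vehicle mouse 2.

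Clone 107 was led by another segment, Ighv2-2, in all 12 lines and both fractions. It had 156 to 279 CPM (median 247.4) in polysomal RNA and 88.8 to 170 CPM in input RNA. Its share was 68.7% to 86.6% in polysomal RNA and 78.1% to 83.7% in input RNA. Family Ighv2 as a whole held 99.9% of the summed polysomal counts and 99.4% of the summed input counts, and the effective number of segments was 1.32 to 1.97 in polysomal and 1.41 to 1.60 in input RNA. The shares rest on 3276 to 10938 Ighv counts per library in polysomal RNA and 2419 to 4105 in input RNA. Lines had at least 10 counts for 6 to 8 segments in both fractions, and Ighv10-1, the leader of clone 4242, had at most 1 count in a line.

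The segments behind Ighv2-2 were nearly all its relatives. Ighv2-4 held 6.06% to 9.05% of the Ighv counts in input RNA, Ighv2-6-8 held 4.20% to 7.42% and Ighv2-5 held 3.04% to 3.85%. The 6 segments with a window within 2 mismatches of Ighv2-2 held 98.0% of all non-leading counts in polysomal RNA and 95.6% in input RNA. In the nodes of clone 4242 the same measure was 7.06% and 9.40%. The share of non-leading counts that reads of the leading segment could make up thus differed between the clones, and how many reads were counted on a relative was not tested.

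Kappa light chain V counts were read beside the heavy chain as a further mark of clonality. Igkv3-4 led in all 24 mice of clone 4242, with 61.8% to 81.6% of Igkv counts in polysomal RNA and 59.7% to 79.6% in input RNA. The 12 lines of clone 107, which shared Ighv2-2, had 5 different leading Igkv segments, and each line had the same one in both fractions. Igkv1-117 led in 4 lines, which were all 3 naive lines and everolimus line 4. Igkv5-43 led in 3 lines, Igkv4-53 in CX-5461 lines 14 and 39, Igkv4-79 in combination lines 8 and 9, and Igkv4-57-1 in everolimus line 12. The leader of a line held 30.5% to 79.8% of Igkv counts in polysomal RNA and 35.7% to 77.2% in input RNA. Shares were lowest in combination lines 8 and 9, so a leading segment did not always hold most of the Igkv counts. Among the genes of the antigen receptor, Rag1, a recombinase subunit that cuts V segments for joining, had 14.8 to 220.4 CPM in polysomal and 5.65 to 116 CPM in input RNA of the lines. It was higher than in naive lines in all 3 treated groups, by 3.56 ± 0.30 after CX-5461, 2.21 ± 0.28 after everolimus and 3.17 ± 0.29 after the combination in input RNA (log2 fold change ± SE, edgeR adjusted p = 0.000134, 0.00631 and 0.00024). Rag1 does not stand for the precursor B cell list, of which 5 genes were tested. In input RNA 2 of them were called higher after CX-5461, 1 after everolimus and 2 after the combination, and 0 lower. Fold changes were positive for 3, 3 and 2 of the 5. Over all genes 8.37%, 11.7% and 13.5% were called in either direction. Any link to the kappa segments was not tested. Igkc, the kappa constant region, was lower after CX-5461 at -2.28 ± 0.27 (edgeR adjusted p = 0.000955) and after the combination at -1.93 ± 0.26 (edgeR adjusted p = 0.00188) in input RNA, while Ighm, the IgM heavy chain constant region, passed the test in no relapse contrast.

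Other heavy chain genes were also read in nodes and lines, which differ in clone and study too. Ighm had a median of 1418 CPM in polysomal and 1537 CPM in input RNA of clone 4242 nodes, and of 1634 and 1652 CPM in clone 107 lines. Its ranges overlapped between nodes and lines in both fractions. Ighg2b and Ighg2c, constant regions of class-switched antibody, had medians of 25.1 and 36.8 CPM in the input RNA of the nodes, and a median of 0 in that of the lines. All 20 T cell genes of the marker list were detected in the nodes of every treatment group. In the lines, 19 of these genes summed to 63.5 to 101 CPM in input RNA. Cd2 alone had a median input level of 69.5 CPM in the lines and 31.7 CPM in the nodes. Cd3e had a median of 0 in the lines and 3.78 CPM in the nodes.

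The first question was whether 2 hours of treatment changed the leading segment of clone 4242. Ighv10-1 passed the test in no contrast. In input RNA it had 159, 226 and 248 CPM (lowest, median, highest) after CX-5461, 194, 209 and 236 after everolimus, 172, 227 and 296 after the combination, and 208, 224 and 255 after vehicle. All groups overlapped. The log2 fold changes were 0.03 ± 0.11 for CX-5461, -0.09 ± 0.11 for everolimus and -0.04 ± 0.11 for the combination (SE; edgeR adjusted p = 0.977, 0.739 and 0.811). In polysomal RNA they were 0.02 for CX-5461, 0.11 for everolimus and 0.00 for the combination (edgeR adjusted p = 0.967, 0.775 and 0.997). The summed Ighv level passed the exact permutation test in none of the 12 contrasts of both studies, where the lowest adjusted p was 0.446.

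The share of Ighv10-1 was higher after CX-5461 than after vehicle by about 6 points in both fractions, without passing the correction. In polysomal RNA it was 59.1%, 63.7% and 66.8% (lowest, median, highest) in CX-5461 mice and 52.7%, 57.2% and 62.0% in vehicle mice, with means of 63.3% ± 2.96 and 57.5% ± 3.43 (SD, n = 6 each; difference 5.76 points, exact permutation p = 0.0130, adjusted over 12 contrasts 0.0779). In input RNA it was 69.3%, 71.9% and 74.1% in CX-5461 mice and 59.4%, 66.3% and 71.4% in vehicle mice, with means of 71.6% ± 1.81 and 65.5% ± 4.81 (SD, n = 6 each; difference 6.07 points, exact permutation p = 0.0108, adjusted 0.0779). The groups overlapped in both fractions. Everolimus mice averaged 61.1% ± 3.80 in polysomal and 66.9% ± 2.67 in input RNA, and combination mice 62.1% ± 4.15 and 69.4% ± 3.79 (SD, n = 6 each), with exact permutation p of 0.121 and 0.556 for everolimus and 0.0758 and 0.167 for the combination. Without the leading segment, the summed Ighv level in input RNA was 6.51 ± 0.19 log2 CPM in CX-5461 mice and 6.88 ± 0.19 in vehicle mice (SD, n = 6 each), a difference of -0.37 with an exact permutation p of 0.00216 and an adjusted p of 0.026. No other of the 12 contrasts of this measure passed. This measure was set as an alternative to the summed Ighv level, not as a main test, and was adjusted over its own 12 contrasts. It was not repeated without the libraries that stood apart. In polysomal RNA the CX-5461 difference was -0.34 (exact permutation p = 0.0130, adjusted 0.0779), and the combination differences were -0.28 in polysomal and -0.32 in input RNA (adjusted exact permutation p = 0.117 for each).

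Among the minor segments, the calls were mostly falls. In polysomal RNA 44 of 127 segments passed the filter on low counts, and 2 fell after CX-5461, none was called after everolimus, and 2 rose and 2 fell after the combination. In input RNA 46 of 130 segments passed the filter, and 2 fell after CX-5461, 1 fell after everolimus and 5 fell after the combination. Over all genes tested in polysomal RNA, 0.709% fell after CX-5461, 0.15% were called in either direction after everolimus, and 4.46% rose and 2.95% fell after the combination. Over all genes tested in input RNA, 0.386% fell after CX-5461, 0.0623% after everolimus and 4.17% after the combination. The count of 0 after everolimus stood beside 6 segments with an unadjusted edgeR p under 0.05 and 3 calls by DESeq2. The median log2 fold change of the tested segments in polysomal RNA was -0.46 for CX-5461, -0.24 for everolimus and -0.13 for the combination. In input RNA it was -0.46 for CX-5461, -0.35 for everolimus and -0.36 for the combination, where the median over all genes was 0.00 for each. The counts are of 1 to 5 segments, so the share called among segments and that among all genes were not tested against each other.

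Ighv4-1 (chr12:113948282-113948796) was the segment with the clearest fall. In polysomal RNA it had 0.476, 0.788 and 1.16 CPM (lowest, median, highest) after CX-5461, 0.787, 1.07 and 2.76 after everolimus, 0.166, 0.326 and 0.669 after the combination, and 1.03, 1.98 and 3.04 after vehicle. In input RNA it had 0.468, 0.587 and 1.13 CPM after CX-5461, 0.264, 1.10 and 2.43 after everolimus, 0.160, 0.346 and 0.581 after the combination, and 1.36, 2.17 and 2.75 after vehicle. Combination mice lay below all vehicle mice in both fractions, and CX-5461 mice did so in input RNA. The log2 fold change was -2.63 ± 0.36 in polysomal and -2.69 ± 0.35 in input RNA after the combination (edgeR adjusted p = 0.000418 and 0.000225), and -1.43 ± 0.32 and -1.57 ± 0.32 after CX-5461 (edgeR adjusted p = 0.0376 and 0.0278). After everolimus it was -0.60 ± 0.30 in polysomal and -0.81 ± 0.30 in input RNA and missed the threshold (edgeR adjusted p = 0.466 and 0.251). The combination call held in all 8 alternatives in both fractions.

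Ighv9-3 (chr12:114140692-114141122) fell after CX-5461 in both fractions. It had 0.417, 1.16 and 1.48 CPM in polysomal RNA of CX-5461 mice and 1.30, 2.44 and 6.73 in that of vehicle mice. In input RNA it had 0.508, 0.795 and 1.13 CPM in CX-5461 mice and 1.41, 2.59 and 6.74 in vehicle mice. The groups did not overlap in input RNA and overlapped in polysomal RNA. The log2 fold changes were -1.83 ± 0.44 and -1.97 ± 0.45 (edgeR adjusted p = 0.0471 and 0.0488), and after the combination the input value was -1.40 ± 0.43 (edgeR adjusted p = 0.0466) and the polysomal value -0.78 ± 0.40 (edgeR adjusted p = 0.199). The CX-5461 calls were close to the threshold and were lost in 3 of 8 alternatives in polysomal RNA and 4 of 8 in input RNA, and the combination call was lost in 2 of 8.

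The other calls concerned further segments, after the combination or everolimus. After the combination, Ighv14-4 (-2.06 ± 0.61), Ighv5-16 (-1.89 ± 0.44) and Ighv5-9 (-2.40 ± 0.74) fell in input RNA, with edgeR adjusted p of 0.0405, 0.0166 and 0.0487. Ighv5-4 fell in polysomal RNA (-1.99 ± 0.60, edgeR adjusted p = 0.0433), with 1.29, 1.75 and 2.19 CPM in combination mice and 0.561, 6.25 and 13.9 in vehicle mice, of which 2 lay below all combination mice. This call was lost in 3 of 8 alternatives, and without the libraries with much Lars2 and Yam1 (CX-5461 mouse 6, vehicle mice 2, 5 and 6) the fold change was -0.91 (edgeR adjusted p = 0.363). The Ighv14-4 call was lost in 1 of 8 alternatives and the Ighv5-9 call in 2 of 6. Ighv5-16 had 0.0581, 0.280 and 0.496 CPM in input RNA of combination mice and 0.334, 0.984 and 1.75 in that of vehicle mice, with overlap, and its call held in the 6 alternatives that tested it. Ighv1-20 and Ighv3-1 rose in polysomal RNA, by 3.00 ± 0.83 and 3.13 ± 0.80 (edgeR adjusted p = 0.0335 and 0.0253). Ighv1-20 had 0.327, 0.749 and 2.69 CPM in combination mice and 0, 0.0908 and 0.347 in vehicle mice, which overlapped. Its call was lost in 2 of 7 alternatives, without the libraries with much Lars2 and Yam1 (edgeR adjusted p = 0.0563) and without combination mouse 3 and vehicle mouse 6 (edgeR adjusted p = 0.0661). Ighv3-1 had 0.483, 1.17 and 2.54 CPM in combination mice and 0, 0.149 and 0.204 in vehicle mice, with no overlap, and its call was lost in 1 of 7 alternatives. No vehicle mouse reached the level of the filter on low counts for Ighv1-20 or Ighv3-1. Both segments thus entered the test through mice of other groups, combination mice among them. Their fold changes rest on vehicle values near 0. In input RNA Ighv3-1 was 1.91 ± 0.72 higher and missed the threshold (edgeR adjusted p = 0.0872). Ighv5-9-1 fell after everolimus in input RNA, with 0.0526, 0.128 and 0.282 CPM in everolimus mice and 0.213, 1.81 and 3.75 in vehicle mice (-3.64 ± 0.65, edgeR adjusted p = 0.0155); without everolimus mouse 3 the edgeR adjusted p was 0.0612 and no segment was called.

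**Figure D4:**
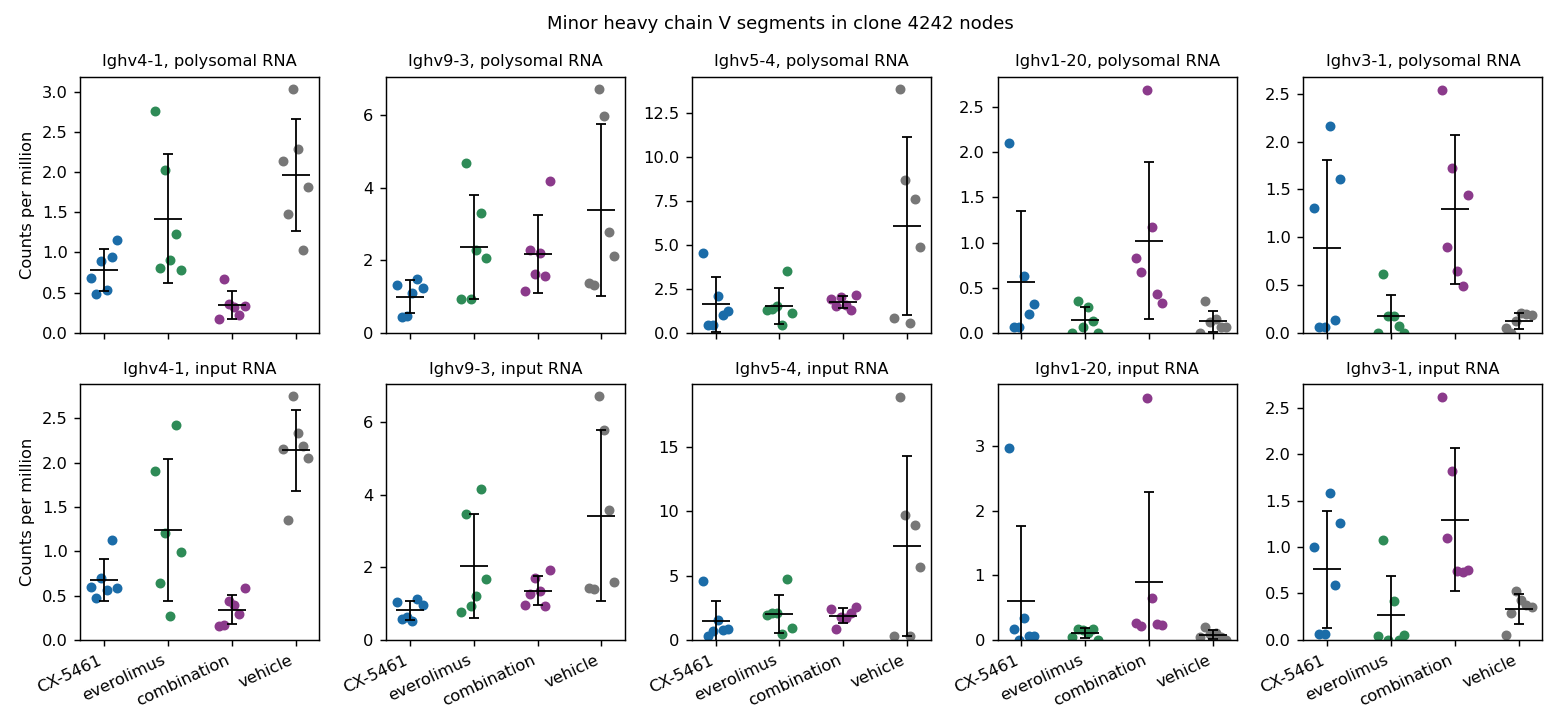
CPM of 5 minor segments in each clone 4242 mouse (points), with group mean and SD (bars), polysomal RNA above and input RNA below. All combination mice lie below all vehicle mice for Ighv4-1, and 4 vehicle mice carry the highest Ighv5-4 values of each fraction.

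The calls after CX-5461 were lost when some libraries were left out, which also made the groups smaller, while the fold changes stayed negative. Over the main fit and all alternatives, Ighv4-1 ran from -1.81 to -1.41 in polysomal and -1.60 to -1.56 in input RNA. Ighv9-3 ran from -2.25 to -1.79 in polysomal and -2.13 to -1.85 in input RNA. No Ighv was called in input RNA once the libraries with much Gm26870 and Gm10800 were left out (CX-5461 mice 4 and 6, everolimus mouse 2), and none in polysomal RNA once those with much Lars2 and Yam1 were left out (CX-5461 mouse 6, vehicle mice 2, 5 and 6) or without combination mouse 3 and vehicle mouse 6. T cell genes moved in the same contrasts. Of 20 T cell genes tested, 4 fell after CX-5461 in each fraction, none was called after everolimus, and 14 in polysomal and 12 in input RNA fell after the combination. Their summed input level was 74.0 to 126 CPM after CX-5461, 103 to 177 after everolimus, 104 to 154 after the combination and 132 to 186 after vehicle, and in polysomal RNA it was 128 to 145 CPM after CX-5461, 143 to 196 after everolimus, 116 to 169 after the combination and 130 to 225 after vehicle. None of the 20 genes was at 0 in a group. Cd2, which was also high in the lines, is part of these sums, so they do not measure T cells alone. Of the 11 mature B cell genes tested, 4 fell in polysomal and 1 in input RNA after CX-5461. None was called after everolimus in either fraction. After the combination, 1 fell in polysomal RNA, and 1 rose and 1 fell in input RNA. The part of host cells in the Ighv results was not tested.

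Across the 24 mice, after treatment means were taken out, the non-leading Ighv level had a Pearson r of 0.51 with the mean T cell marker level in polysomal RNA (permutation p = 0.0120, adjusted over 6 relations 0.0718; Spearman rho 0.43, permutation p = 0.0365, adjusted 0.219). In input RNA r was 0.45 (permutation p = 0.0278, adjusted 0.0833; Spearman rho 0.27, permutation p = 0.201, adjusted 0.603). Without the 2 mice farthest from the median, r was 0.38 in polysomal and 0.22 in input RNA, so the input relation rested on them. None of the 6 relations, which also covered mature B cell and plasma cell lists, passed the correction.

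In the relapse lines, the question was whether lines that regrew after a drug differed from naive lines. In input RNA 6 of 81 segments passed the filter, and edgeR called none in any contrast, nor did DESeq2, and none had an unadjusted edgeR p under 0.05. Over all genes, 8.37% were called after CX-5461, 11.7% after everolimus and 13.5% after the combination. Ighv2-2 had log2 fold changes of -0.27 for CX-5461, 0.08 for everolimus and -0.02 for the combination (edgeR adjusted p = 0.515, 0.822 and 0.965). In polysomal RNA 8 of 81 segments passed the filter, and 2 rose after CX-5461, where 11.4% of all genes rose. None was called after everolimus (1 with an unadjusted edgeR p under 0.05 and 1 call by DESeq2, background 0.115%) or the combination (0 and 0, background 10%).

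The leading segment itself passed the test in no polysomal contrast. Ighv2-2 had 266, 213 and 247 CPM in CX-5461 lines 14, 20 and 39, 205, 202 and 156 CPM in everolimus lines 4, 12 and 26, 271, 253 and 223 CPM in combination lines 8, 9 and 31, and 248, 279 and 268 CPM in naive lines 6, 33 and 38. The 3 everolimus lines lay below the naive lines, while the other treated groups overlapped them. The log2 fold changes were -0.16 ± 0.13 for CX-5461, -0.49 ± 0.13 for everolimus and -0.00 ± 0.13 for the combination (SE; edgeR adjusted p = 0.357, 0.246 and 0.994). DESeq2 called the everolimus value, with an adjusted p of 0.0363.

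Both segments that rose in polysomal RNA of CX-5461 lines were relatives of Ighv2-2. Ighv2-4 had 67.0, 17.5 and 59.8 CPM in CX-5461 lines 14, 20 and 39, and 20.1, 20.9 and 19.1 CPM in naive lines 6, 33 and 38. Lines 14 and 39 lay far above the naive lines and line 20 lay below them. The log2 fold change was 1.21 ± 0.35 (edgeR adjusted p = 0.0384). Ighv2-9-1 (chr12:113769850-113770302) had 31, 15 and 69 counts in the CX-5461 lines and 4, 9 and 3 in the naive lines, with no overlap (2.24 ± 0.62, edgeR adjusted p = 0.0326). Its call was lost in 8 of 12 alternatives, with a fold change of 1.61 with the stretch of table columns as a term (edgeR adjusted p = 0.305) and 1.29 without lines 14 and 39 (edgeR adjusted p = 0.453). It was lost without any single line of CX-5461 14 and 39 or naive 6, 33 and 38, at an edgeR adjusted p of 0.0652 to 0.122. Ighv2-5 had 30.98, 10.7 and 28.0 CPM in CX-5461 lines and 11.3, 11.2 and 12.3 in naive lines, and missed the threshold (0.94 ± 0.34, edgeR adjusted p = 0.0705). Input RNA of the same lines did not show the pattern, with Ighv2-4 at 7.57, 14.3 and 8.07 CPM in CX-5461 lines and 17.7, 9.54 and 11.003 CPM in naive lines. With the stretch of table columns as a term, the Ighv2-4 fold change was -0.06, and without lines 14 and 39 it was -0.14. In 6 further alternatives of 12, 5 of which left out the same single lines, the fold change was 0.87 to 1.22 and the call was lost (edgeR adjusted p = 0.0845 to 0.153). Lines 14 and 39 were the only libraries of their stretch, so the stretch and these 2 lines cannot be told apart. Line 20 had the same treatment and lay outside that stretch. Its Ighv2-4 level of 17.5 CPM lay below the naive lines, while its 15 counts of Ighv2-9-1 lay above them. The part of treatment was not tested apart from that of the stretch.

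**Figure D5:**
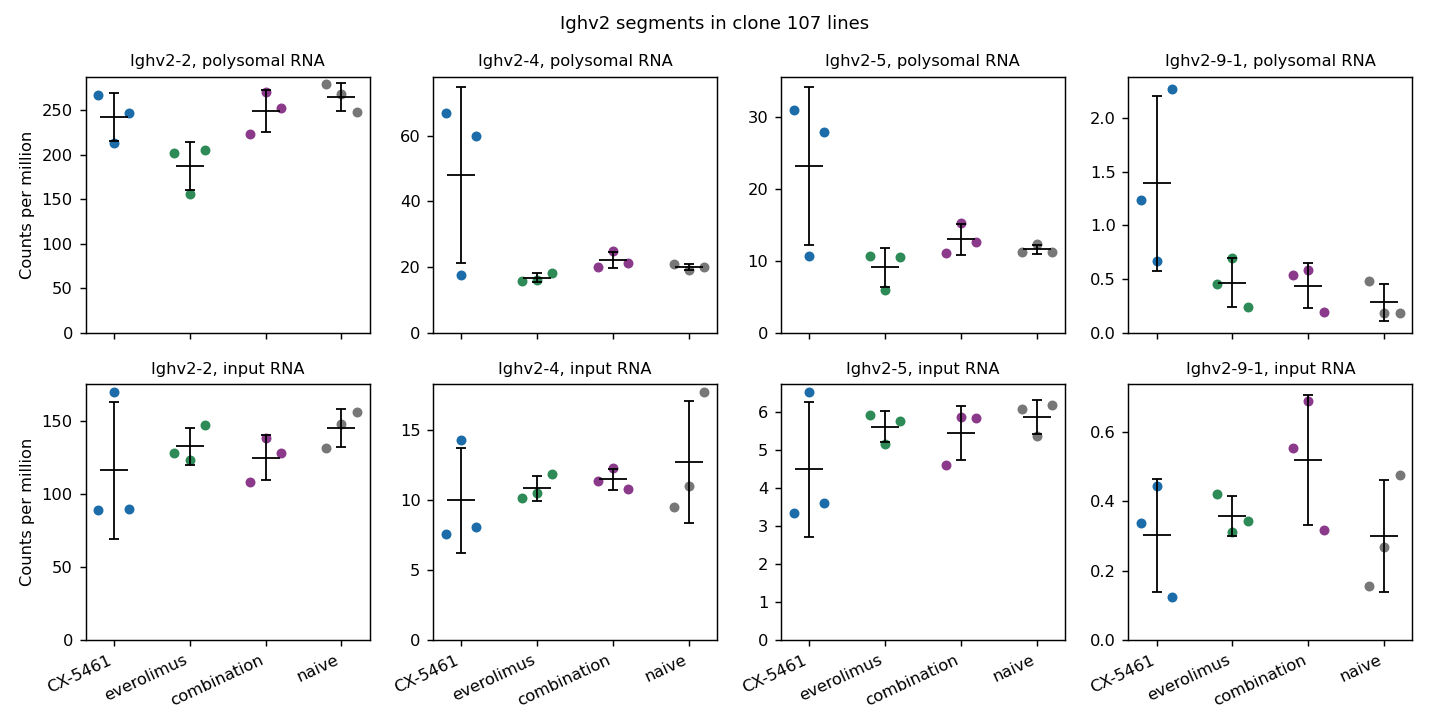
CPM of 4 Ighv2 segments in each clone 107 line (points), with group mean and SD (bars), polysomal RNA above and input RNA below. In polysomal RNA CX-5461 lines 14 and 39 stand at 67.0 and 59.8 CPM for Ighv2-4, above every other line, while their input values are 7.57 and 8.07 CPM.

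The polysomal share of Ighv2-2 moved with these relatives. It was 69.6%, 82.4% and 68.7% in CX-5461 lines 14, 20 and 39, 83.5%, 82.9% and 81.7% in everolimus lines 4, 12 and 26, 82.5%, 84.1% and 83.1% in combination lines 8, 9 and 31, and 84.7%, 84.9% and 86.6% in naive lines 6, 33 and 38. All treated lines lay below all naive lines. Means were 73.6% ± 7.69 in CX-5461 lines and 85.4% ± 1.01 in naive lines (SD, n = 3 each), a difference of -11.8 points with an exact permutation p of 0.1, which is the smallest that 3 against 3 lines allow (adjusted 0.171). In input RNA the shares were 81.7%, 80.1% and 79.9% in CX-5461 lines, 82.6%, 81.2% and 82.0% in everolimus lines, 79.95%, 79.9% and 78.1% in combination lines, and 80.05%, 83.5% and 83.7% in naive lines, where the CX-5461 and everolimus lines overlapped the naive lines and the combination lines lay just below them. In the share of Ighv2-4 among Ighv counts, CX-5461 lines 14 and 39 had 17.5% and 16.6% in polysomal RNA, against 6.77% in line 20.

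Polysomal RNA held less of the leading segment than input RNA in clone 4242. The share of Ighv10-1 was lower in polysomal RNA in 24 of 24 mice, at 61.0% ± 4.02 in polysomal and 68.3% ± 4.01 in input RNA (SD, n = 24; mean difference -7.35 points, sign-flip permutation p = 2e-05, the smallest the resamples can give). In vehicle mice alone it was 57.5% ± 3.43 in polysomal and 65.5% ± 4.81 in input RNA (SD, n = 6; lower in 6 of 6, exact sign-flip permutation p = 0.0312, adjusted 0.0468). The Ighv1-28 count as a percentage of the Ighv10-1 count was higher in polysomal RNA in 24 of 24 mice, at 25.9% ± 3.73 in polysomal and 17.8% ± 2.12 in input RNA (SD, n = 24; permutation p = 2e-05). Relative to Ighv10-1, the transcript of the pseudogene whose stop codon is shown in capitals was thus more abundant in polysomal than in input RNA.

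In the fit over all genes with a block on the mouse, 10 of 57 tested segments were lower in polysomal than in input RNA of vehicle mice and none was higher, where 32.2% of all genes were lower. Ighv10-1 was lower by -0.73 ± 0.09 (edgeR adjusted p = 9.96e-08) and Ighv10-3 by -0.69 ± 0.13 (edgeR adjusted p = 6.63e-05). Ighv1-28 was at -0.13 ± 0.08 and missed the threshold (edgeR adjusted p = 0.154). The others that fell were Ighv1-18, Ighv1-4, Ighv1-64, Ighv3-1, Ighv3-5, Ighv5-6, Ighv6-3 and Ighv9-2, from -1.51 for Ighv3-1 to -0.54 for Ighv1-18. The median over tested segments was -0.28, against -0.07 over all genes. Without scaling between tables, on plain totals, the log2 polysomal minus input difference of Ighv10-1 in vehicle mice was -0.71 to -0.34, and over all 24 mice it was -0.93 to 0.24 (median -0.39), lower in 21 and higher in 3. No treatment changed the polysomal to input difference of any of the 57 segments by edgeR, nor of any gene, and 4, 3 and 6 segments had an unadjusted p under 0.05 for CX-5461, everolimus and the combination. Without combination mouse 3 and vehicle mouse 6, the difference was called higher after the combination than after vehicle for 1 segment, Ighv9-3 (0.83 ± 0.20, edgeR adjusted p = 0.0450), where 171 of 16496 genes were called.

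In clone 107 the leading share did not differ in one direction. It was 81.2% ± 5.81 in polysomal and 81.1% ± 1.69 in input RNA (SD, n = 12; higher in 9 of 12 lines, permutation p = 0.917). Without CX-5461 lines 14 and 39 the mean difference was 2.53 points in 10 lines. These 2 lines had the lowest polysomal shares and were left out after the data were seen. A test of the remaining lines can therefore not decide whether the share differed. In naive lines 0 of 9 tested segments were called by edgeR and none had an unadjusted p under 0.05, where 44.1% of all genes were called in either direction. Ighv2-2 stood at 0.31 ± 0.15 (edgeR adjusted p = 0.111), and without CX-5461 line 20 at 0.32 (edgeR adjusted p = 0.00874) or without lines 14 and 39 at 0.33 (edgeR adjusted p = 0.0134). On plain totals the log2 polysomal minus input difference of Ighv2-2 was larger, at 0.66 to 1.09 (median 0.86) in naive lines and 0.32 to 1.58 over all lines, higher in polysomal RNA in 12 of 12. The change of this difference by treatment was called for no segment, with 3, 1 and 0 at an unadjusted p under 0.05 for CX-5461, everolimus and the combination. Without CX-5461 line 20 the polysomal to input difference was called higher in the remaining CX-5461 lines than in naive lines for 3 segments, Ighv2-4 (2.04 ± 0.18), Ighv2-5 (1.82 ± 0.24) and Ighv2-6-8 (0.74 ± 0.21), out of 9 tested. In that fit 4730 of 16267 genes were called in either direction, so calls were common over all genes too.

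The genes whose input level followed Ighv10-1 most closely over the 24 mice were Ncf4 (Pearson r = 0.94), Psmd8 (0.91), Nop16 (0.90), Gpd1l (0.89) and Emp3 (0.89), out of 10847 genes compared. These values are a description, and the libraries share depth and composition.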

How the data were processed

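Cytoplasmic (input) and polysomal RNA of the 24 mice and 12 lines was sequenced as single-end 50-base reads after ribodepletion, per the labels' protocols. The authors deposited raw read counts per gene in 4 tables, 1 for each study and fraction. The submitters' processing notes name TopHat2, HTSeq and GRCm38; their versions, the annotation and the strand setting are not given in the sources used here, and strand can change counts where genes overlap. Reads with no gene, 5.79% to 26.0% of all in the acute polysomal table and 6.07% to 19.7% in the acute input table, were left out of totals and tests. Every per-sample column of the tables was used.

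The members and gene lists were chosen with earlier results of these data known. Treatment effects were tested with edgeR 4.0.16 (quasi-likelihood test, TMM, its filter on low counts, Benjamini-Hochberg over all genes, threshold 0.05) in R 4.3.3, for each table on its own with all 4 treatments. Each SE was derived by dividing the log2 fold change by the root of its F statistic. Polysomal and input RNA were compared in a joined table of each study with a block on the mouse or line. CPM are counts scaled to a library total of 1000000; log2 CPM of summed Ighv counts use TMM totals. Shares and sums were compared by exact two-sided permutation tests (enumerated), adjusted over 12 contrasts, and shares between fractions by sign-flip permutation. Correlations used 100000 resamples. The fits were tested on simulated counts first. The text names the leading segment and the next 5 of each study, every segment past the threshold, and fixed heavy chain and B-cell genes; a segment outside this rule is named as such.

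DESeq2 1.42.0, RLE size factors, no filter, only the compared groups, a block on replicate number, leaving out lines in turn and leaving out libraries that stood apart were tried as alternatives. Sequences and gene types were read from GENCODE M21 on GRCm38, with identity and 50-base windows computed in Biopython 1.88. Python 3.11.15, scipy 1.17.1, pandas 2.3.3 and matplotlib 3.10.9 were used.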

Additional observations from a re-analysis of the deposited data

Results flagged for a closer look

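In 128 groups of 6 mice, tested for 1 library set far apart from the other 5 by Dixon's test, 21 were flagged. For independent, normally distributed values, chance flags about 1 in 20 groups. The tested segments included those called by treatment in these data, and both fractions of a mouse were tested. These rates can therefore not be compared. Among CX-5461 mice, mouse 3 had the lowest summed Ighv level in input RNA (8.01 log2 CPM) and mouse 2 in polysomal RNA (7.62). Ighv1-20 stood high in CX-5461 mouse 1 in both fractions (2.10 CPM in polysomal and 2.97 CPM in input RNA) and in combination mouse 3 (2.69 and 3.75 CPM). Ighv1-26 stood high in everolimus mouse 6 (8.66 CPM in polysomal and 7.34 CPM in input RNA) and in polysomal RNA of CX-5461 mouse 5 (11.4 CPM). Each of these flagged minor segments was high in single mice, and 2 of them in both fractions of the same mouse.

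In input RNA, Ighv1-28 was low in CX-5461 mouse 4 (26.3 CPM), Ighv14-4 and Ighv4-1 were high in CX-5461 mouse 5 (0.807 and 1.13 CPM), and Ighv5-4 was high in CX-5461 mouse 1 (4.57 CPM). In polysomal RNA, the share of Ighv10-1 was high in everolimus mouse 4 (68.4%). Ighv1-82 was high in combination mouse 3 (7.51 CPM) and vehicle mouse 4 (5.71 CPM), and Ighv5-16 in combination mouse 3 (0.558 CPM). Ighv3-1 was high in everolimus mouse 2 (0.609 CPM), Ighv5-4 in everolimus mouse 5 (3.50 CPM), Ighv5-9-1 in vehicle mouse 3 (5.62 CPM) and Ighv9-3 in combination mouse 6 (4.18 CPM).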

How the results depend on the processing

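Counts of called segments were small and moved with the processing. In acute input RNA after CX-5461 (2 called), DESeq2 called 4, RLE size factors 1, no count filter 5, only the compared groups 1 and 0 came without the libraries with much Gm26870 and Gm10800. After everolimus (1 called), the values were 0 by DESeq2, 2 with no filter, 0 with the compared groups, 0 without those libraries and 0 without everolimus mouse 3. After the combination (5 called), they were 3 by DESeq2, 10 with no filter, 3 with the compared groups and 8 without combination mouse 3 and vehicle mouse 6. In acute polysomal RNA, CX-5461 (2 called) had 4 by DESeq2, 0 without those with much Lars2 or Yam1 and 0 without combination mouse 3 and vehicle mouse 6, everolimus (0 called) had 3 by DESeq2 and 2 with no filter, and the combination (4 called) had 2 with the compared groups and 1 without those with much Lars2 or Yam1. In relapse input RNA (0 called), CX-5461 and the combination had 1 each with no filter, and leaving out lines gave 0 to 1 after the combination. In relapse polysomal RNA, CX-5461 (2 called) had 4 by DESeq2, 0 with the compared groups, 0 with the column stretch as a term (chosen after seeing the data, as was leaving out lines 14 and 39), 1 without lines 14 and 39, and 0 to 4 when single lines were left out. Everolimus there (0 called) had 1 by DESeq2 and 1 with the column stretch, and the combination (0 called) had 1 without CX-5461 lines 14 and 39.

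The replicate number did not pair mice: same-numbered mice of different groups had a mean correlation of -0.01 in polysomal and 0.05 in input RNA. With a replicate block, 1 segment was called after CX-5461 in polysomal RNA, and 1 after CX-5461 and 2 after the combination in input RNA. Without the block on the mouse, 2 segments were called between acute polysomal and input RNA, against 10.

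The leading segment kept its side of the threshold except after everolimus in relapse polysomal RNA, where DESeq2 (-0.49, adjusted p = 0.0363) and the column stretch (-0.49, adjusted p = 0.0396) called it. Values near 0 changed sign. Ighv10-1 after the combination in acute polysomal RNA was -0.0039 by DESeq2, -0.00051 by RLE, -0.0034 with no filter, -0.0075 with the replicate block and -0.00078 without everolimus mouse 3. Ighv2-2 after the combination was 0.038 in relapse input RNA with no filter, and in relapse polysomal RNA 0.0018 by DESeq2, 0.0040 by RLE, 0.0045 with the compared groups and 0.0064 with the column stretch. When single lines were left out, it ran from -0.056 to 0.073 after the combination in polysomal RNA, from -0.18 to 0.14 after the combination in input RNA and from -0.018 to 0.18 after everolimus in input RNA.

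The summed level without the leading segment was -0.37 after CX-5461 in acute input RNA and -0.12 after everolimus in acute polysomal RNA, and in that everolimus contrast the summed level was -0.013 without everolimus mouse 3. On plain library totals it was 0.041 after the combination in acute polysomal RNA, -0.055 after the combination in relapse polysomal RNA, and -0.12 after everolimus and -0.17 after the combination in relapse input RNA. Without lines 14 and 39 it was -0.20 after CX-5461 in relapse polysomal RNA, and leaving out single lines gave -0.055 to 0.18 there, -0.031 to 0.11 after the combination in polysomal RNA and -0.11 to 0.18 after the combination in input RNA. The leading share within its own family was -0.28 points after CX-5461 in acute polysomal RNA and -0.19 points after everolimus in acute input RNA; without single lines the everolimus share in relapse input RNA ran from -1.67 to 0.16 points.

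Between fractions, leaving out combination mouse 3 and vehicle mouse 6 again gave 10 segments lower in vehicle mice, with Ighv1-19, Ighv3-6 and Ighv9-3 in place of Ighv1-4, Ighv1-64 and Ighv5-6, and gave 1 call in the combination term and a CX-5461 term of 0.025 for Ighv10-1. In the relapse study, without lines 14 and 39, 2 segments were called, Ighv2-2 stood at 0.33 with a CX-5461 term of -0.46, and the share differed by 2.53 points. Leaving out single lines gave 0 to 2 called segments, 0 to 3 for the CX-5461 term, 0.31 to 0.35 for Ighv2-2, and -0.083 to 0.38, -0.057 to 0.081 and -0.60 to -0.52 for its CX-5461, combination and everolimus terms, with -0.27 to 1.28 points for the share. Ighv2-4 after CX-5461 in relapse polysomal RNA was -0.064 with the column stretch and -0.14 without lines 14 and 39. Where no value shows it, the cause was not tested. Other calls of single segments were lost in the numbers of alternatives given with them; Ighv4-1 after the combination and Ighv5-16 kept theirs in all that tested them. Without the block on the mouse, Ighv10-1 and Ighv10-3 were the 2 that stayed called. Depth limits the minor segments most, since many have under 10 counts in a library.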
